A study of Homo sapiens with 6 samples.

Results

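The machinery that copies and transcribes mitochondrial DNA (mtDNA) was followed at the mRNA level through 10 nuclear genes picked by name for this role, all 10 of which were among the 58825 genes of the deposited table and among the 17774 genes tested. They encode the replicative helicase TWNK, both subunits of the mtDNA polymerase (POLG and POLG2), the single-stranded DNA-binding protein SSBP1, the exonuclease MGME1, the topoisomerase TOP1MT, the packaging and promoter factor TFAM, the RNA polymerase POLRMT, and its initiation and elongation factors TFB2M and TEFM. RNA was sequenced from PANC-1 cells, an established human pancreatic carcinoma line, given 40 μM maslinic acid (MA, a plant triterpene) for 24 h (MA PANC-1, 3 samples) and from untreated PANC-1 cells (3 samples, 0 μM), which the study describes as biological replicates. The labels call the control cells untreated, the study's methods name DMSO as the control treatment of its pancreatic cancer cells, and all 6 samples are of 1 line.

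mtDNA is a small multicopy circle in the mitochondrial matrix that encodes core subunits of the respiratory chain, together with the rRNAs and tRNAs needed to make them. Its replication fork is short of parts compared with the nuclear one: TWNK unwinds the duplex, POLG with its accessory subunit POLG2 synthesises DNA, and SSBP1 coats the displaced strand. TFAM both compacts mtDNA into nucleoids and, with TFB2M, brings POLRMT to the promoters, and POLRMT transcripts also serve as primers for replication. Every one of these proteins is made in the cytosol and imported.

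Between 56978375 and 70275355 estimated counts were held per sample. These totals exceed the valid reads that the study lists, so a count here is an estimate and not a number of reads. Keratins KRT8 (140.8 to 224.8 FPKM, fragments per kilobase of transcript scaled to the depth of the library) and KRT18 (277.7 to 337.7 FPKM) and vimentin (VIM, 520.6 to 753.6 FPKM) were abundant in all samples, whereas the epithelial markers KRT19 and EPCAM reached at most 0.109 and 0.132 FPKM. Leukocyte, endothelial, acinar and endocrine marker genes were at or near 0. Of the fibroblast markers, LUM was low but detected in every sample (0.351 to 0.616 FPKM, 64 to 135 counts), and DCN and PDGFRA were at or near 0. In RNA of whole cultures, fewer cells of a type and less RNA per cell cannot be told apart. The library MA PANC-1 2 stood apart by base composition: its counts had a weighted GC content of 51.8%, against 50.4 to 50.9% in the other 5, and compared with the mean of the other MA libraries its median gene, over 13028 genes averaging 100 counts or more, was 0.45 log2 CPM (counts scaled to library depth) lower among transcripts under 40% GC and 0.38 log2 CPM higher among those of 60% GC or more. Taken the same way, against a mean that includes MA PANC-1 2, MA PANC-1 3 differed by 0.38 and -0.26 log2 CPM in these bins and MA PANC-1 1 by 0.09 and -0.11 log2 CPM, while the untreated libraries lay between -0.12 and 0.11 of the mean of the other untreated ones. Log2 fold changes of the members are therefore also given without this library and with a smooth GC trend removed from each library. The trend was fitted to each library without regard to group, so any difference between groups that follows GC content is removed with it. A GC-adjusted value therefore cannot tell a difference between libraries from one that came with MA.

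Promoters are shown for 5 members because nuclear genes of this machinery are classically described as targets of NRF1, of the ETS factor GABP and of SP1, whose mRNAs were measured too. The RefSeq promoter table (GRCh38.p14, 250 bases before to 50 bases after each start) held entries for 8 of the 10 members. It held none for TWNK and TOP1MT, whose promoters were therefore not searched. Capitals mark 3 motifs searched on both strands: paired NRF1 half-sites (GCGC, any 2 bases, GCGC, which reads alike on both strands), the ETS motif CCGGAAG, which on the other strand reads as its reverse complement, and the cyclic AMP response element TGACGTCA. TFAM lies on the plus strand (chr10:58385160-58385459), POLRMT on the minus strand (chr19:633488-633787), POLG2 on the minus strand (chr17:64497005-64497304), TEFM on the minus strand (chr17:30906189-30906488) and MGME1 on the plus strand (chr20:17968768-17969067).
TFAM promoter: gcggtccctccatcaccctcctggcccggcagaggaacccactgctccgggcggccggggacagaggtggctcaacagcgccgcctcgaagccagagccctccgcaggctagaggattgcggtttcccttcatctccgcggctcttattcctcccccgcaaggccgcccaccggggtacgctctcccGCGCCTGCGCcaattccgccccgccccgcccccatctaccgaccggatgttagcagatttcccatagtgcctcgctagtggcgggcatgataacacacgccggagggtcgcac
POLRMT promoter: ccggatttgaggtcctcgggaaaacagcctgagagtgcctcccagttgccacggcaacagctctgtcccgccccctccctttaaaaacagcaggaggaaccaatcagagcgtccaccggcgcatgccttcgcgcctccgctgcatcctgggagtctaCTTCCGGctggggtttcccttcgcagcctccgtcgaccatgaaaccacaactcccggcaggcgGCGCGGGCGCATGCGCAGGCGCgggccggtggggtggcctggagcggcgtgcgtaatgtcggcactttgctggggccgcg
POLG2 promoter: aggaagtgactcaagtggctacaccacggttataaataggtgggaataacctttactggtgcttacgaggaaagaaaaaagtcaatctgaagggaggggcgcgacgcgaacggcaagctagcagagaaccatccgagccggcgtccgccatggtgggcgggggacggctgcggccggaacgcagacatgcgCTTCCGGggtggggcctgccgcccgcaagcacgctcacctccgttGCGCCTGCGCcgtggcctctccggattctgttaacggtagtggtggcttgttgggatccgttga
TEFM promoter: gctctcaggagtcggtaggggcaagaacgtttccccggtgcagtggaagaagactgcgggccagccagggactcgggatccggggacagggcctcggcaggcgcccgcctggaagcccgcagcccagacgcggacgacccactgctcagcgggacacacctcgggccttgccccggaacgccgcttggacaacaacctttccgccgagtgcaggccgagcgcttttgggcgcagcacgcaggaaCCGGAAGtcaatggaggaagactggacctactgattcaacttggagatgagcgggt
MGME1 promoter: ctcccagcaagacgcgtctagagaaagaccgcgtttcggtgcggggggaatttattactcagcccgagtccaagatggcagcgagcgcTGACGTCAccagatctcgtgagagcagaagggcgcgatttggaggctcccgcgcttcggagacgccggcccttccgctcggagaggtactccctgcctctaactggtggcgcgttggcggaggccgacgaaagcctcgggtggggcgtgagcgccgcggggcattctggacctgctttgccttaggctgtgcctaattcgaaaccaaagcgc

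The NRF1-type pair was found for TFAM, POLG2 and POLRMT, with 3 matches in a row for POLRMT, each overlapping the next, and 8.32% of all 35116 promoters of the table hold it. The ETS motif was found for POLG2, POLRMT, SSBP1 and TEFM, against 10.3% of all promoters. The cyclic AMP response element was found for MGME1 alone among the 8, against 1.85% of all promoters. Short motifs not marked by capitals were frequent throughout the table: the SP1 box GGGCGG was found for 6 members and in 45% of all promoters, and CCAAT for POLG, POLRMT and TFAM and in 34.6%. In the TFAM promoter a CCAAT box shares its first base with the end of the NRF1-type pair. Members are counted here by gene, the 8 having 10 entries with several for SSBP1, whereas the shares are of promoter entries. These matches describe the letters of the window only, and binding was not measured.

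Among the members, 3 of 10 passed an unadjusted p of 0.05 in edgeR's quasi-likelihood test (TWNK and TFAM lower and POLG higher after MA), where 11.2% of all tested genes did (5.86% lower and 5.37% higher). TWNK alone also met the study's rule for a differentially expressed gene (DEG), an unadjusted p under 0.05 together with a fold of 2 or more, or of 0.5 or less, which 1.92% of all tested genes met (1.25% lower and 0.675% higher). The study had already listed TWNK as lower in mRNA from these same samples. TWNK was picked with that known, so its passing here is no independent evidence. No member passed a Benjamini-Hochberg adjusted p of 0.05, which 0.0394% of all genes (7 genes) did. With DESeq2 1 member passed it, TWNK (adjusted p = 9.25e-06), where 263 of all tested genes did. With limma on log2(FPKM + 0.1) 0 members passed it, where 8 of all tested genes did. The FPKM values of the groups did not overlap for 5 members, 4 lower (TWNK, TFAM, SSBP1 and MGME1) and 1 higher (POLG) after MA, beside 19.9% of all genes (11.1% lower and 8.79% higher). The log2 fold change was negative for 8 members and positive for 2, with a median of -0.13, beside 8929 negative and 8845 positive over all genes with a median of 0.00. The split was 7 and 3 without MA PANC-1 2. With the GC trend removed it was 5 negative and 5 positive, and the members' median was -0.04 and that of all genes 0.04.

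**Figure D1:**
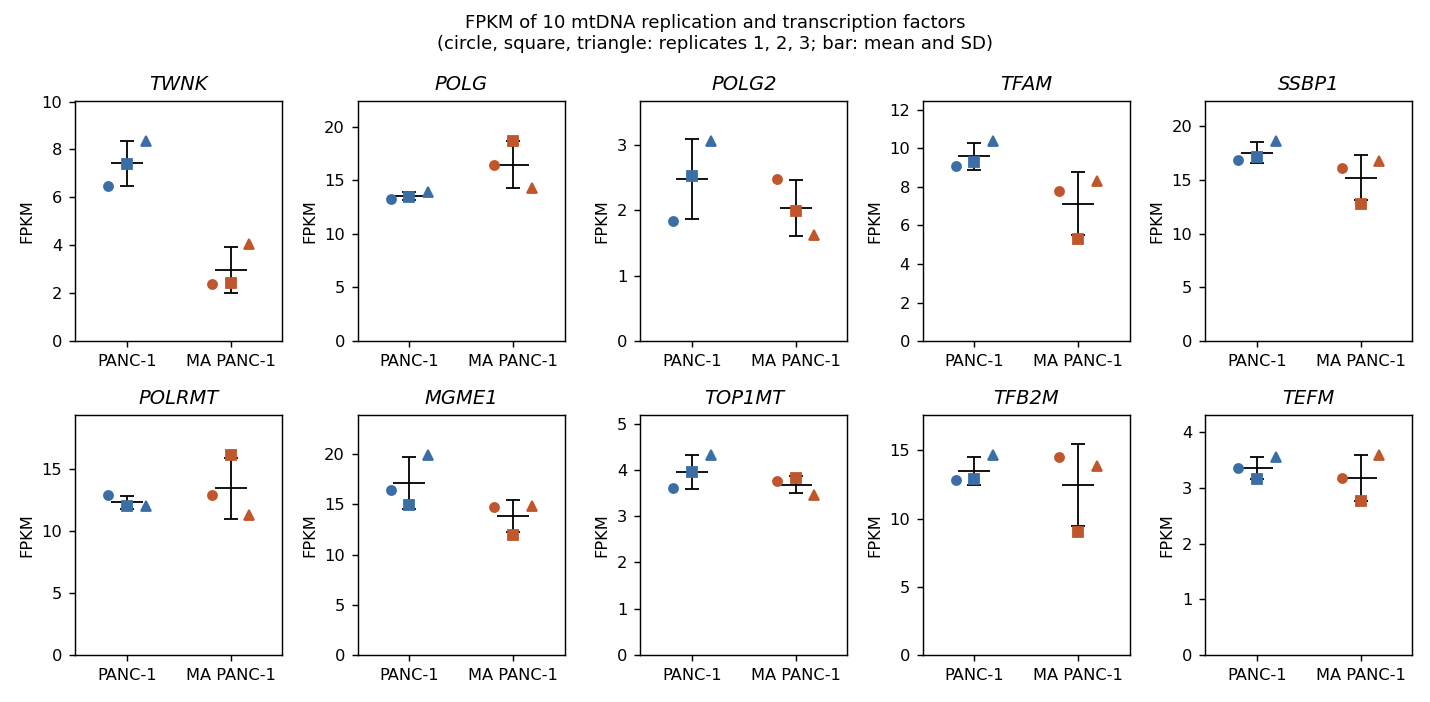
FPKM of the 10 genes in each of the 6 samples, with untreated PANC-1 cells in blue and MA PANC-1 cells in orange, markers for replicates 1 to 3, and the mean and SD of 3 samples as bars. TWNK lies between 2.37 and 4.07 FPKM after MA and between 6.49 and 8.36 FPKM without it, whereas POLG2, POLRMT, TOP1MT, TFB2M and TEFM overlap between the groups.

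TWNK unwinds double-stranded mtDNA ahead of the polymerase and lies on the plus strand at chr10:100987367-100994401 (GRCh38, as in the files). Its level measured 2.37, 2.44 and 4.07 FPKM in MA PANC-1 1 to 3 and 6.49, 7.41 and 8.36 FPKM in PANC-1 1 to 3. Every MA sample was therefore below every untreated one, and MA PANC-1 3 was the nearest to the controls. The means were 2.96 ± 0.959 and 7.42 ± 0.937 FPKM (SD, n = 3 each). The fold change was 0.408 (95% interval 0.284 to 0.585), a log2 fold change of -1.29 ± 0.22 (SE), with an unadjusted p of 0.000574 and adjusted p = 0.208 in edgeR. By its p-value TWNK ranked 49 of 17774 genes. An exact two-sided permutation test over the 6 samples gave p = 0.1, the smallest that 3 against 3 samples allow. The log2 fold change was -1.34 with the GC trend removed and -1.21 without MA PANC-1 2. In the study's proteomics the TWNK protein was listed as higher after MA, without passing its significance threshold. The values here are of mRNA only, and the amount of helicase was not measured.

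The start of TWNK is shared with a neighbour in the opposite direction, MRPL43, a protein of the mitochondrial ribosome, whose annotated span overlaps that of TWNK by 149 bases with starts 148 bases apart. MRPL43 measured 6.63, 8.33 and 6.97 FPKM in MA PANC-1 1 to 3 and 6.93, 5.44 and 5.84 FPKM in PANC-1 1 to 3. Its groups overlapped, and its log2 fold change was 0.31 ± 0.16 (SE, edgeR adjusted p = 0.493), 0.16 without MA PANC-1 2 and 0.21 with the GC trend removed. The TWNK to MRPL43 ratio of FPKM was 0.358, 0.293 and 0.583 after MA and 0.936, 1.36 and 1.43 without it. The library kit marked strand, but whether counting used it is not given in the sources used here, so reads from the overlap cannot be assigned to one gene with certainty.

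POLG, the catalytic subunit of the polymerase, which also proofreads, measured 16.4, 18.7 and 14.3 FPKM in MA PANC-1 1 to 3 and 13.3, 13.4 and 13.9 FPKM in PANC-1 1 to 3. The lowest MA sample was close above the highest untreated one. Its log2 fold change was 0.32 ± 0.13 (SE, unadjusted p of 0.0466 in edgeR, adjusted p = 0.441), and the unadjusted call depended on the libraries: p was over 0.05 in 5 of 6 fits that left out a sample, all but the one without MA PANC-1 3. Without MA PANC-1 2, in which POLG was highest, the log2 fold change was 0.18 (unadjusted p of 0.0875 in edgeR), and with the GC trend removed it was 0.22 (unadjusted p of 0.0427). POLG lies at chr15:89305198-89334861 on the minus strand and shares 12064 bases of its span with FANCI on the other strand, a Fanconi anaemia gene with a log2 fold change of -0.17 (edgeR adjusted p = 0.487), and of 0.00 with the GC trend removed.

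POLG2, the accessory subunit that raises the polymerase's processivity, was the least abundant member in both groups. It was at 2.48, 1.99 and 1.62 FPKM after MA and at 1.84, 2.52 and 3.06 FPKM without it. The groups overlapped, and the log2 fold change was -0.25 (95% interval -0.83 to 0.34, edgeR adjusted p = 0.714), the widest interval of the 10. It was -0.27 without MA PANC-1 2 and -0.10 with the GC trend removed. Leaving out single samples gave values from -0.42 (without PANC-1 1) to -0.07 (without PANC-1 3). The TWNK to POLG ratio of FPKM was 0.145, 0.131 and 0.285 in MA PANC-1 1 to 3 and 0.489, 0.551 and 0.601 in PANC-1 1 to 3. Helicase mRNA was thus below polymerase mRNA per length in all 6 samples, with no overlap of the ratios between groups.

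SSBP1, which binds single-stranded mtDNA, was the most abundant member in untreated cells. It was at 16.1, 12.8 and 16.8 FPKM after MA and at 16.9, 17.1 and 18.6 FPKM without it, with MA PANC-1 2 far below the rest. Its log2 fold change was -0.17 (95% interval -0.42 to 0.08, edgeR adjusted p = 0.545), was -0.09 without MA PANC-1 2 and turned to 0.03 with the GC trend removed. MGME1, the exonuclease that trims single-stranded ends of mtDNA, was at 14.7, 12.0 and 14.9 FPKM after MA and at 16.4, 14.9 and 19.9 FPKM without it. The highest MA value lay just under the lowest untreated one, and the log2 fold change was -0.27 (95% interval -0.59 to 0.05, edgeR adjusted p = 0.487), -0.21 without MA PANC-1 2 and -0.15 with the GC trend removed. With single samples left out, that of MGME1 ranged from -0.36 (without PANC-1 2) to -0.15 (without PANC-1 3). SNX5, which starts 38 bases from MGME1 on the other strand and serves in endosomal sorting, had a log2 fold change of -0.25 (edgeR adjusted p = 0.517), and of -0.14 without MA PANC-1 2. TOP1MT, which relaxes supercoils in mtDNA, was at 3.76, 3.82 and 3.47 FPKM after MA and at 3.61, 3.95 and 4.33 FPKM without it, so that the groups overlapped. Its log2 fold change was -0.07 (95% interval -0.36 to 0.23, edgeR adjusted p = 0.857), -0.13 without MA PANC-1 2 and -0.16 with the GC trend removed.

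TFAM coats and bends mtDNA and its level is classically tied to mtDNA copy number. Its mRNA measured 7.78, 5.28 and 8.33 FPKM in MA PANC-1 1 to 3 and 9.08, 9.31 and 10.4 FPKM in PANC-1 1 to 3. All MA samples were lower, MA PANC-1 2 most of all. The log2 fold change was -0.40 ± 0.16 (SE, unadjusted p of 0.0377 in edgeR, adjusted p = 0.435). It was -0.25 without MA PANC-1 2 (unadjusted p of 0.0342 in edgeR) and -0.14 with the GC trend removed (unadjusted p of 0.122), and p was over 0.05 in the fits without MA PANC-1 1, PANC-1 1, PANC-1 2 or PANC-1 3. TFAM transcripts had the lowest GC content of the 10 members (39.4%), in the range where MA PANC-1 2 was low for genes at large, and the part of base composition in this difference was not tested beyond the GC-adjusted value.

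POLRMT, the phage-type RNA polymerase of mitochondria, was at 12.9, 16.2 and 11.3 FPKM after MA and at 12.9, 12.1 and 12.0 FPKM without it. The MA samples lay on both sides of the untreated ones, and the log2 fold change was 0.17 (95% interval -0.21 to 0.56, edgeR adjusted p = 0.697) with all samples, -0.03 without MA PANC-1 2 and 0.03 with the GC trend removed. TFB2M, which melts the promoter with POLRMT, was at 14.5, 9.02 and 13.9 FPKM after MA and at 12.8, 12.9 and 14.7 FPKM without it. Only MA PANC-1 2 lay apart from the others, and the log2 fold change of -0.09 (95% interval -0.49 to 0.32, edgeR adjusted p = 0.869) became 0.07 without it and 0.10 with the GC trend removed. CNST, which starts 183 bases from TFB2M on the other strand, had a log2 fold change of -0.03 (edgeR adjusted p = 0.949), which was 0.04 without MA PANC-1 2 and 0.09 with the GC trend removed. TEFM, which lets POLRMT pass the point where transcription otherwise ends to make replication primers, was at 3.17, 2.77 and 3.59 FPKM after MA and at 3.36, 3.16 and 3.56 FPKM without it. Its groups overlapped almost fully, and the log2 fold change was -0.04 (95% interval -0.40 to 0.31, edgeR adjusted p = 0.929), 0.01 without MA PANC-1 2 and 0.17 with the GC trend removed.

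**Figure D2:**
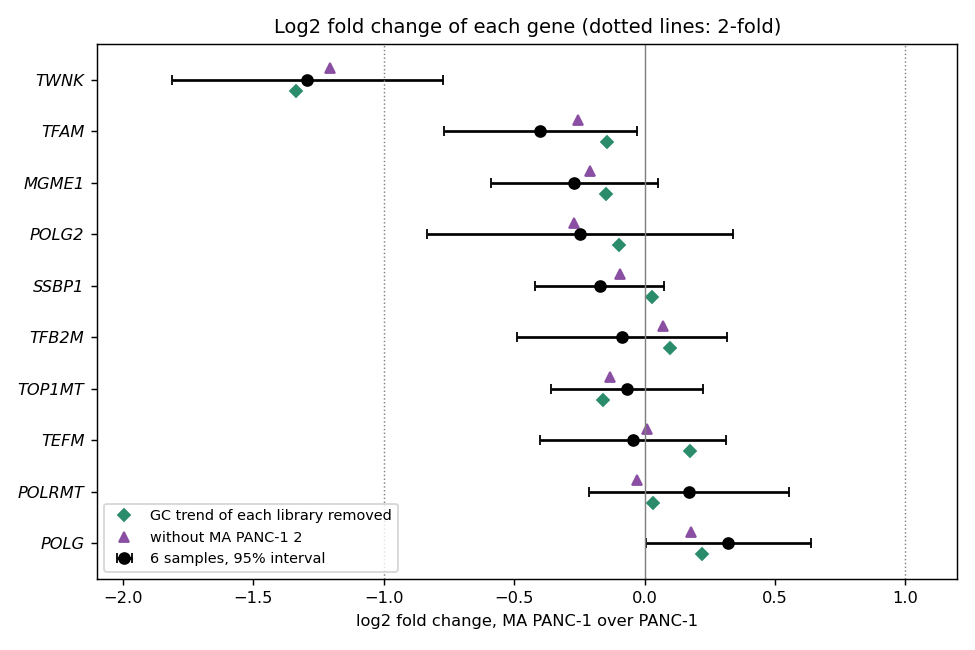
Log2 fold change of each member, MA PANC-1 over PANC-1, from edgeR with its 95% interval (black, 3 samples a group), after removal of each GC trend (green) and without MA PANC-1 2 (purple), and dotted lines at a fold change of 2. The interval of TWNK lies wholly below 0 at -1.81 to -0.77, while those of the other 9 members lie within a fold change of 2 in both directions.

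For 9 members the 95% interval excluded a change of 2-fold in either direction, whereas the interval for TWNK reached from -1.81 to -0.77. Among untreated cells the members' mean levels, per length, fell in the order SSBP1, MGME1, POLG, TFB2M, POLRMT, TFAM, TWNK, TOP1MT, TEFM and POLG2. SSBP1 and MGME1 (17.5 ± 0.959 and 17.1 ± 2.58 FPKM, SD) did not differ by more than the sum of their SDs, nor did POLG and TFB2M (13.5 ± 0.339 and 13.5 ± 1.04 FPKM) or TFB2M and POLRMT (12.3 ± 0.518 FPKM), whereas POLG and POLRMT did. The other neighbours in that order, from TFAM at 9.59 ± 0.700 FPKM and TWNK at 7.42 ± 0.937 FPKM down to POLG2 at 2.47 ± 0.611 FPKM, differed by more than the sum of their SDs. In MA PANC-1 cells the order was POLG, SSBP1, MGME1, POLRMT, TFB2M, TFAM, TOP1MT, TEFM, TWNK and POLG2, and neighbours were within the sum of their SDs from POLG to TFB2M and again from TOP1MT to POLG2. TWNK thus stood in place 7 of 10 in untreated cells and in place 9 in MA PANC-1 cells. Summed over the members, the level was 94.2, 84.9 and 92.1 FPKM after MA and 96.7, 96.8 and 108.9 FPKM without it.

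Variation among the MA samples followed the transcripts' GC content in most members. Of the 6 members under 46% GC, 5 were lower in MA PANC-1 2 than the mean of MA PANC-1 1 and 3, with POLG2 as the exception (0.09 log2 CPM higher). Of the 4 members of at least 53% GC, 3 were higher, POLRMT by 0.53 log2 CPM, and TWNK, at 53.2% GC, was the exception at -0.24. PANC-1 3 was the sample with the highest FPKM for 7 members.

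**Figure D3:**
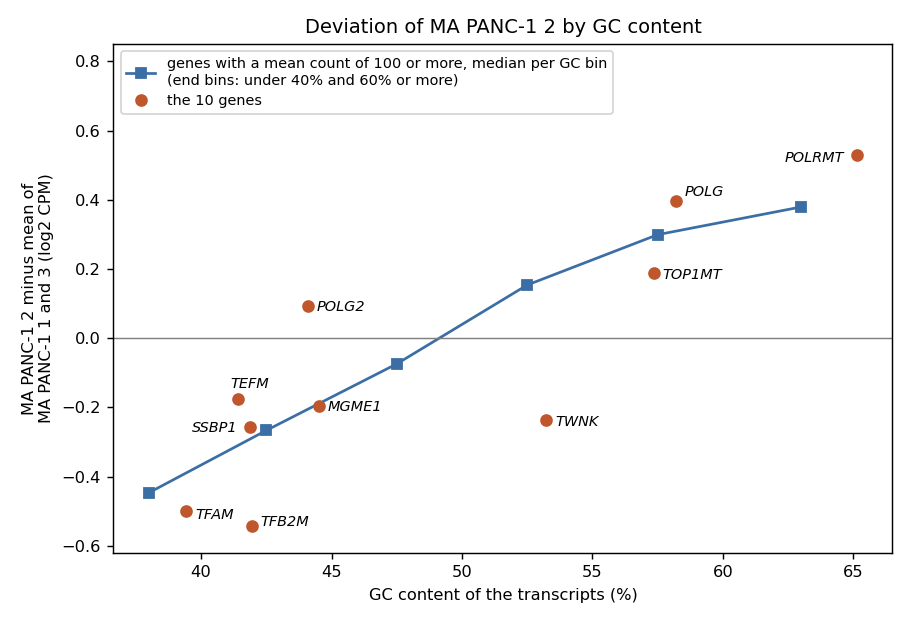
Log2 CPM of MA PANC-1 2 minus the mean of MA PANC-1 1 and 3 against the GC content of the transcripts, for the 10 members (orange) and as the median, per GC bin, of genes averaging 100 counts or more (blue squares). The line climbs from -0.45 under 40% GC to 0.38 at 60% GC or more, and TWNK lies below 0 where the line is above it.

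The genes around this machinery were read from lists of the pathway, each edgeR count standing beside 5.37% of all tested genes higher and 5.86% lower at an unadjusted p of 0.05. The share of all tested genes that were lower was 6.54% in DESeq2 and 6.19% in limma. Of 20 further genes of mtDNA maintenance and nucleotide supply, 3 were higher and 2 lower at an unadjusted p of 0.05 in edgeR, with a median log2 fold change of 0.00, and DESeq2 and limma each called 3 higher and 3 lower. SLC25A36, a carrier of pyrimidine nucleotides into the matrix, was at 0.966, 0.446 and 0.796 FPKM after MA and at 3.52, 3.39 and 3.51 FPKM without it, and was the only one of the 20 to meet the DEG rule. The groups lay far apart, with a log2 fold change of -2.20 ± 0.25 (SE, unadjusted p of 3.96e-05 in edgeR, adjusted p = 0.0743), and of -1.97 with the GC trend removed. DESeq2 called it at adjusted p = 4.86e-16, and limma on log2(FPKM + 0.1) did not (adjusted p = 0.0925). OPA1, the GTPase of inner membrane fusion, was lower with a log2 fold change of -0.43 (unadjusted p of 0.0332 in edgeR, adjusted p = 0.432), which was -0.28 (unadjusted p of 0.0293) without MA PANC-1 2 and -0.15 (unadjusted p of 0.0631) with the GC trend removed. MFN2, a GTPase of outer membrane fusion, was at 72.1, 76.3 and 63.9 FPKM after MA and at 55.7, 54.0 and 56.4 FPKM without it, a log2 fold change of 0.40 (unadjusted p of 0.00760 in edgeR, adjusted p = 0.388). SUCLG1, a subunit of succinate-CoA ligase, and MPV17, an inner membrane protein lost in mtDNA depletion disease, were higher with log2 fold changes of 0.25 and 0.36 (unadjusted p of 0.0201 and 0.0217 in edgeR, both over 0.05 once adjusted). FEN1, a flap endonuclease and with MFN2 the most abundant of the list, had a log2 fold change of 0.02, and of -0.02 without MA PANC-1 2.

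Of 24 genes for transcription control and RNA maturation in mitochondria, 1 was lower and 0 higher at an unadjusted p of 0.05 in edgeR, DESeq2 and limma alike, with a median log2 fold change of -0.13 that became 0.03 with the GC trend removed. The gene lower in edgeR was KIAA0391, the nuclease subunit of mitochondrial RNase P, with a log2 fold change of -0.31 (unadjusted p of 0.0419 in edgeR, and 0.312 with the GC trend removed). HSD17B10, another subunit of that enzyme, and MRPL12, a ribosomal protein also described as binding POLRMT, were the most abundant, with log2 fold changes of 0.23 and 0.11 (unadjusted p of 0.0782 and 0.413 in edgeR). Without MA PANC-1 2 these were 0.11 and -0.04, and with the GC trend removed 0.13 and -0.01. Of 11 nucleoid and matrix protease genes, 1 passed, the prohibitin PHB2, with a log2 fold change of 0.20 (unadjusted p of 0.0413 in edgeR, and 0.174 with the GC trend removed). Its partner PHB went the other way in value, with a log2 fold change of -0.23 (unadjusted p of 0.0665), and of -0.28 (unadjusted p of 0.0291) with the GC trend removed, when it was the only gene of the list past the threshold. PHB was named after its values were seen. With limma on log2(FPKM + 0.1) 1 gene of the list was lower and 0 higher, and DESeq2 called 0 in either direction. The median of this list was 0.19, and 0.10 with the GC trend removed. Its most abundant genes, the chaperones HSPD1 and HSPA9, had log2 fold changes of -0.04 and 0.10, which were 0.05 and 0.15 without MA PANC-1 2 and 0.07 and 0.21 with the GC trend removed.

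Among 14 nuclear regulators of mitochondrial genes, 13 were tested and 2 were lower and 0 higher at an unadjusted p of 0.05 in edgeR, with a median log2 fold change of 0.02. DESeq2 called 1 higher and 1 lower, and limma on log2(FPKM + 0.1) called 0 higher and 1 lower. The coactivator gene PPARGC1A was not tested, at most 0.00883 FPKM in any sample. GABPA, the DNA-binding subunit of GABP, was at 5.09, 3.68 and 6.13 FPKM after MA and at 7.06, 5.90 and 8.12 FPKM without it. Its groups overlapped at MA PANC-1 3, and the log2 fold change of -0.47 (unadjusted p of 0.0399 in edgeR) was -0.33 (unadjusted p of 0.0901) without MA PANC-1 2 and -0.12 (unadjusted p of 0.254) with the GC trend removed. SP1 was at 12.2, 9.90 and 12.6 FPKM after MA and at 14.2, 13.8 and 13.6 FPKM without it, a log2 fold change of -0.23 (unadjusted p of 0.0414 in edgeR), and of -0.19 (unadjusted p of 0.0174) with the GC trend removed. NRF1, whose half-sites mark the TFAM, POLG2 and POLRMT promoters above, was at 4.52, 5.20 and 4.20 FPKM after MA and at 4.10, 4.68 and 5.33 FPKM without it, with a log2 fold change of 0.02 (edgeR adjusted p = 0.965) and of -0.11 without MA PANC-1 2. NRF1 was named after its values were seen. TFE3 and ESRRA, the most abundant regulators, had log2 fold changes of 0.29 and 0.50 (unadjusted p of 0.0688 and 0.0848 in edgeR). TFE3 was at 0.19 without MA PANC-1 2. ESRRA was at 21.9, 22.6 and 12.3 FPKM in PANC-1 1 to 3, and its log2 fold change was 0.26 without PANC-1 3 and 0.34 without MA PANC-1 2.

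**Figure D4:**
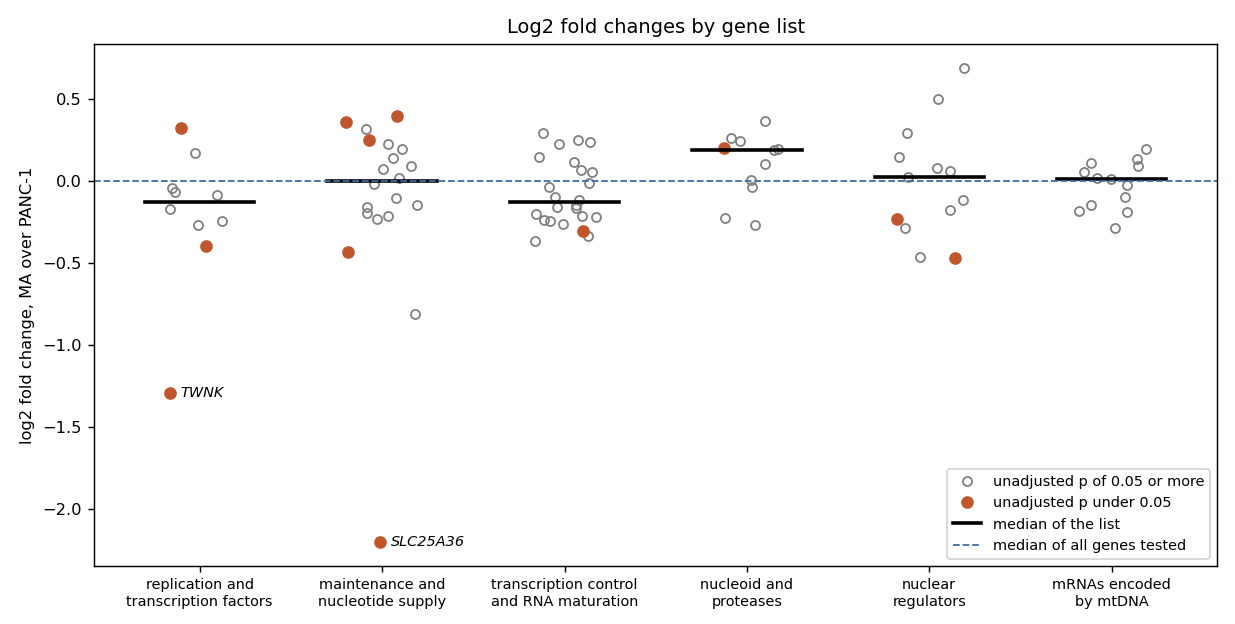
Log2 fold change, MA PANC-1 over PANC-1, of each tested gene in 6 lists, filled where the unadjusted edgeR p was under 0.05, with the median of each list (black) and of all tested genes (dashed). TWNK at -1.29 and SLC25A36 at -2.20 are the only genes drawn past a fold change of 2.

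The products of mtDNA transcription were measured in the same libraries, which were made from poly(A) RNA. The 13 mRNAs encoded by mtDNA took 5.056, 6.370 and 5.831% of all counts in MA PANC-1 1 to 3 and 6.137, 5.976 and 6.005% in PANC-1 1 to 3, so that MA PANC-1 2 was the highest and the groups overlapped. None of the 13 passed an unadjusted p of 0.05 in edgeR, with a median log2 fold change of 0.01. Without MA PANC-1 2, 5 of them passed, all lower, where 5.81% of all genes were lower in that fit, and with the GC trend removed 0 did (5.2% of all genes lower). The median log2 fold change with the GC trend removed was 0.17. All 13, at 39.6 to 47.7% GC, were 0.12 to 0.48 log2 CPM higher in MA PANC-1 2 than the mean of the other MA libraries. Genes at large in the bins below 50% GC had medians of -0.45 to -0.07 there, so these mRNAs did not follow the trend that was removed. DESeq2 on all samples called 0 at an unadjusted p of 0.05 (6.54% of all genes lower) and limma on log2(FPKM + 0.1) called 3, all lower (6.19% of all genes). MT-CO2 and MT-CO1, subunits of cytochrome c oxidase and the most abundant, had log2 fold changes of -0.15 and -0.03 (unadjusted p of 0.196 and 0.805 in edgeR). Without MA PANC-1 2 these were -0.23 (unadjusted p of 0.0161) and -0.12 (unadjusted p of 0.123), so that MT-CO2 was among the 5, and with the GC trend removed they were -0.05 and 0.06. MT-CO2 was at 7194, 8312 and 7913 FPKM after MA and at 9032, 9039 and 8552 FPKM without it, with no overlap. Of the rRNAs, MT-RNR2 of the large ribosomal subunit was at 1493, 1406 and 1834 FPKM after MA and at 1779, 2121 and 2002 FPKM without it. Its groups overlapped at MA PANC-1 3 and PANC-1 1, with a log2 fold change of -0.29 (unadjusted p of 0.0430 in edgeR, and 0.376 with the GC trend removed). MT-RNR1 of the small subunit had a log2 fold change of -0.08 (edgeR adjusted p = 0.779), and of 0.02 with the GC trend removed.

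Among 11469 genes with a mean of at least 1 FPKM, those whose centred log2 CPM lay nearest to that of TWNK over the 6 samples were ADGRF4, an adhesion receptor gene (root mean square distance 0.181), the pseudogene RPL22P2 (0.191), the secreted glycoprotein gene STC1 (0.220), the proteoglycan gene SPOCK1 (0.241) and TMEM158 (0.258). The median distance of all these genes from TWNK was 0.747. The other members of the machinery lay at 0.504 (TFAM) to 0.892 (POLG) from TWNK, and none was among the 5 nearest. All of them except POLG and POLRMT (0.838) lay nearer to TWNK than that median. STC1, for example, was at 2.69, 1.93 and 3.18 FPKM after MA and at 6.85, 6.47 and 6.41 FPKM without it. The 5 nearest genes were picked for a profile like that of TWNK, so their lower values after MA follow from the choice.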

How the data were processed

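RNA of 3 MA PANC-1 and 3 PANC-1 samples was sequenced from stranded poly(A) libraries. For each gene the authors deposited FPKM, normalized by length and depth (0.0001 where no count was found), and an estimated count, not normalized and given as a whole number. The count totals exceed the valid reads that the study lists, which is why halved counts were tried. The submitters' processing notes name cutadapt 1.9, HISAT2 2.0.4, StringTie 1.3.4d, edgeR and DESeq2. Of the 58825 genes, 58552 are in GENCODE 29 (GRCh38, used for GC content), where 47593 have exactly the same start and end and 58550 overlap the listed position. Groups were taken from the sample titles and the treatment characteristic. The treatment protocol label gives 40 μM for all 6 samples alike, and the 0 μM of the untreated group follows the study's methods.

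Genes averaging 0.1 FPKM or more were tested on the counts with edgeR 4.0.16 (R 4.3.3), TMM normalization and the quasi-likelihood test, and p-values were adjusted by Benjamini-Hochberg over all 17774 genes. The script was tested on simulated data. Alternatives used DESeq2 1.42.0, limma 3.58.1 on log2(FPKM + 0.1) and log2(FPKM + 1), other normalizations and filters, the replicate number as a block, halved counts, sums of overlapping genes, ratios of mean FPKM, and each sample left out. Removal of a GC trend was chosen after seeing the data and took no account of group. The spread between replicates, not counting error, set the precision.

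Members and lists were chosen with earlier results of these data known. Besides the members, up to 3 genes per direction and list with the smallest p under 0.05, the 2 most abundant of each list, neighbours within 1 kb or overlapping, and the 5 genes nearest to TWNK were named. Summed levels and percentages of counts, and ratios, were computed from the deposited values. Python 3.11.15 with pandas 2.3.3, numpy 2.4.6 and scipy 1.17.1 was used.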

Additional observations from a re-analysis of the deposited data

How the results depend on the processing

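TWNK kept its direction and an unadjusted p under 0.05 in all 19 alternatives with a test, with log2 fold changes from -1.56 to -1.11 and a largest p of 0.00354 in edgeR. Its adjusted p passed 0.05 in DESeq2 only and was 0.0671 to 0.586 in the edgeR and limma alternatives. TFAM had an unadjusted p under 0.05 in 13 of the 19 and POLG in 8 of the 19, neither with a change of direction. The ratio of mean FPKM, which has no test of its own, gave TWNK a log2 value of -1.33. SSBP1 turned to 0.0271 with the GC trend removed and to 0.0257 with the replicate block added. As samples were left out, the log2 fold change of POLRMT ranged from -0.0285 (without MA PANC-1 2) to 0.3015, of TFB2M from -0.1964 to 0.0721 (without MA PANC-1 2) and of TEFM from -0.1182 to 0.0099 (without MA PANC-1 2). With the GC trend removed, and with the block added, TFB2M was at 0.0968 and 0.0939 and TEFM at 0.173 and 0.168. The count of members with p under 0.05 was 3, ranged from 1 to 3 as samples were left out, and was 1 with the GC trend removed and the replicate block.

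Genes past p and 2-fold numbered 342, against 44 with limma on log2(FPKM + 1), 93 at a mean FPKM of at least 1 and 569 without a filter, and from 326 to 534 as samples were left out (highest without MA PANC-1 3). Genes past the adjusted p numbered 7, against 263 in DESeq2, 12 at a mean FPKM of at least 1, 0 with the replicate block, 27 with the GC trend removed and 2 with both, and 3 to 24 as samples were left out (4 without MA PANC-1 1, 24 without MA PANC-1 2, 3 without PANC-1 2). Summing overlapping genes on the same strand gave 218 and 15. The causes were not tested. The correlations of deviations between same-numbered samples were 0.0152, 0.0253 and 0.0622, and those between differently numbered samples ran from -0.0445 to 0.0188. All were small, so the numbers were not taken as pairs, although the highest values were between same-numbered samples. With the replicate block the log2 fold change of TWNK was -1.32 and 2 members had p under 0.05. With 3 samples a group and a biological coefficient of variation of 0.307, small changes of single genes could not be resolved.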

Other observations

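The deposited GO annotation places all 10 members in the mitochondrion, a term with 1342 tested genes, chosen after its values were seen. At an unadjusted edgeR p of 0.05, 115 of these genes were higher and 53 lower after MA, beside 5.37% higher and 5.86% lower over all tested genes, with a median log2 fold change of 0.07. By its p-value TWNK ranked 6 in the term. Of the 44 tested genes annotated to the mitochondrial nucleoid, 9 of them members, TWNK alone met the DEG rule. That is 2.27% of the term, close to the 1.92% of all tested genes that met it. GC content moved with the direction at large: among genes averaging 100 counts or more, the median log2 fold change was -0.26 under 40% GC and 0.16 at 60% GC or more, and its part in the count of mitochondrial genes was not tested.

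AC124068, which starts 192 bases from POLG on the other strand, was low in all samples, with 16, 21 and 8 counts in MA PANC-1 1 to 3 and 64, 31 and 29 in PANC-1 1 to 3. Its log2 fold change was -1.27 (edgeR adjusted p = 0.449), the opposite sign to that of POLG. Of the other low neighbours, OVOL2, which overlaps MGME1, had a log2 fold change of 0.58 (edgeR adjusted p = 0.662) and ADAP2, which starts 106 bases from TEFM, of -0.36 (edgeR adjusted p = 0.795). MIR6766 inside POLG had at most 2 counts in a sample, and WEE2-AS1, TAS2R3, TAS2R4, TAS2R6P, ATP5MFP4, RNU6-220P and AC130324 were too low to be tested.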
